A study of Sus scrofa with 56 samples.

Results

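The mitochondrial genome of the pig carries a small set of protein genes, and 10 of them are described here: ND1, ND2, ND3, ND4 and ND5 of complex I, CYTB of complex III, COX1, COX2 and COX3 of complex IV, and ATP6 of complex V. They were taken by their Ensembl IDs, which a gene name table pairs with these symbols, and all 10 were found among the 24358 genes of every library. The libraries were made from mononuclear cells of the peripheral blood of 28 multiparous sows (Sus scrofa), sampled on day 98 of gestation (G98, 28 libraries) and on day 11 of lactation (L11, 28 libraries). At each stage 14 libraries came from conventional and 14 from enriched housing. Sows of low parity (LP, in gestation 2 or 3) gave 15 libraries at G98 and 14 at L11, and sows of high parity (HP, gestation 4 or later) gave 13 and 14. Dominant, intermediate and subordinate sows gave 9, 11 and 8 libraries at G98 and 11, 9 and 8 at L11, and all but 1 of the dominant libraries at each stage came from HP sows. The experiment was run as 2 experimental replicates, R1 and R2, with 14 libraries of each at each stage. The labels name no treatment besides housing. In these bulk libraries fewer cells of a type and less RNA per cell cannot be told apart.

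Mitochondrial DNA is transcribed in the organelle by its own polymerase as long precursors that are cut into single messages, most of them at the transfer RNAs between the genes. The proteins they encode are the hydrophobic cores of respiratory chain complexes I, III and IV and of the ATP synthase, each of which also needs many subunits encoded in the nucleus. The ND subunits belong to the proton-pumping arm of NADH dehydrogenase. CYTB holds the b-type haems of the cytochrome bc1 complex, COX1 the oxygen-binding centre of cytochrome c oxidase, and COX2 takes electrons from cytochrome c. ATP6 lines the proton path of the ATP synthase.

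In the RefSeq annotation of Sscrofa11.1 all 10 lie on the mitochondrial chromosome, MT, and each is a single gene span without an intron. In order along it they are ND1 (955 bases, positions 3922 to 4876), ND2 (1042 bases, 5087 to 6128), COX1 (1545 bases, 6511 to 8055), COX2 (688 bases, 8203 to 8890), ATP6 (681 bases, 9120 to 9800), COX3 (784 bases, 9800 to 10583), ND3 (346 bases, 10653 to 10998), ND4 (1378 bases, 11359 to 12736), ND5 (1821 bases, 12935 to 14755) and CYTB (1140 bases, 15342 to 16481). The lengths in the deposited files are the same. Neighbouring genes touch or overlap in 4 places: ATP8 (8959 to 9162) runs into ATP6, ATP6 shares its last base with COX3, ND4L (11069 to 11365) runs into ND4, and ND6 (14739 to 15266) overlaps the end of ND5. The sources used here do not say how reads in an overlap were assigned or whether counting used strand, so counts of the overlapping genes are uncertain to that extent.

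Library totals ran from 18096881 to 25302994 estimated counts, and 14276 to 14825 genes had a count above 0. All 8 erythroid markers with an ID had counts when summed over each stage, while SLC4A1 was at 0 in 4 libraries and CA1 in 11. These 8 markers took a median of 1.43% of the counts at G98 in R1 (0.0933% to 10.1%) and 0.240% at G98 in R2. At L11 they took 0.0410% in R1 and 0.116% in R2. T cell, B cell and monocyte markers were above 0 in both stages. Of 26 sows both stages were sequenced in the same replicate, and the other 2 sows have a G98 library only. Among the 26, 2 sows of R1 have a second L11 library in R2, so the L11 libraries are not all separate animals.

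The 10 genes together took a median of 2.86% of a library's counts, from 0.991% to 6.62%. At G98 the lowest, median and highest shares were 0.991%, 2.61% and 3.15% in R1 and 2.08%, 2.82% and 3.81% in R2. At L11 they were 2.27%, 3.20% and 4.31% in R1 and 2.13%, 3.91% and 6.62% in R2. The share was therefore highest in the L11 libraries of R2, but the ranges of the 4 sets overlap. As mean ± SD the shares were 2.40% ± 0.652 and 2.85% ± 0.543 at G98 and 3.14% ± 0.693 and 3.96% ± 1.26 at L11 (R1 and R2, n = 14 each). Within the 26 pairs of libraries of 1 sow, the share was higher at L11 in 22, with a median ratio of 1.32 (0.772 to 2.50). It was higher in 11 of 14 pairs of R1 and in 11 of 12 of R2. Taking the erythroid counts out of the totals left 22 of 26 pairs higher, with a median ratio of 1.32, the same number of pairs as with them.

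**Figure D1:**
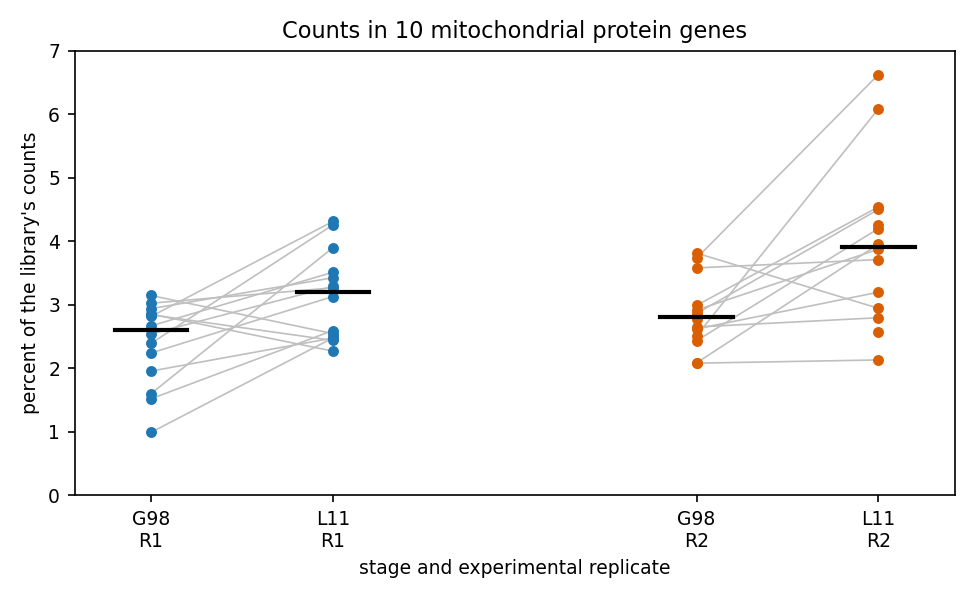
Each point is 1 library and gives the percent of its estimated counts that fell in the 10 mitochondrial protein genes. Grey lines join the 2 libraries of 1 sow and the black bars are medians of 14 libraries. Most lines rise from G98 to L11, and 2 libraries of L11 in R2 stand above 6%.

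There were 3 libraries that stood apart from the others in this share. The L11 library of a conventional HP subordinate sow of R2 had 6.62% (95% Wilson interval 6.61% to 6.64%), against 3.73% in the same sow at G98. The L11 library of an enriched LP intermediate sow of R2 had 6.08% (6.07% to 6.09%), against 2.51% at G98. The next highest library of the series had 4.54%. The G98 library of an enriched LP intermediate sow of R1 had 0.991% (0.987% to 0.996%), against 2.48% at L11. In that low library erythroid markers took 10.1% of the counts, the most of all 56, and platelet markers 0.00713%, the least. In both high libraries the erythroid, platelet, monocyte and granulocyte shares lay within the range of the other libraries. The part of these marker values in the shares was not tested. The intervals cover counting error only, and the tests below were also run without these 3 sows.

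Per effective length, ATP6 had the highest level. On the scale of the deposited TPM, the authors' own value per effective length, ATP6 had a median of 20315 over the 56 libraries (6144 to 45150). By median TPM it was in place 1 of all 24358 genes, and it stood above the other 9 mitochondrial genes in 56 of 56 libraries. COX3 followed with a median of 16402 TPM (5317 to 34150) and COX1 with 10182 (3677 to 17190). COX2 had a median of 7307 TPM, ND3 4864, CYTB 4828, ND2 3387, ND4 3092, ND1 1902 and ND5 1675. The lowest of these medians, that of ND5, is still in place 89 of all genes. Neighbours in this order were not all apart: ND3 was above CYTB in 30 of 56 libraries and ND1 above ND5 in 44, while the other neighbours kept their order in 49 to 56. The effective lengths in the files are well below the gene lengths for some genes (a median of 389 of 681 bases for ATP6 and 611 of 784 for COX3), and the order depends on them. With counts per kilobase of gene length, COX3 was above ATP6 in 46 of 56 libraries, followed by COX1, CYTB, COX2, ND4, ND3, ND2, ND1 and ND5 by their medians.

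**Figure D2:**
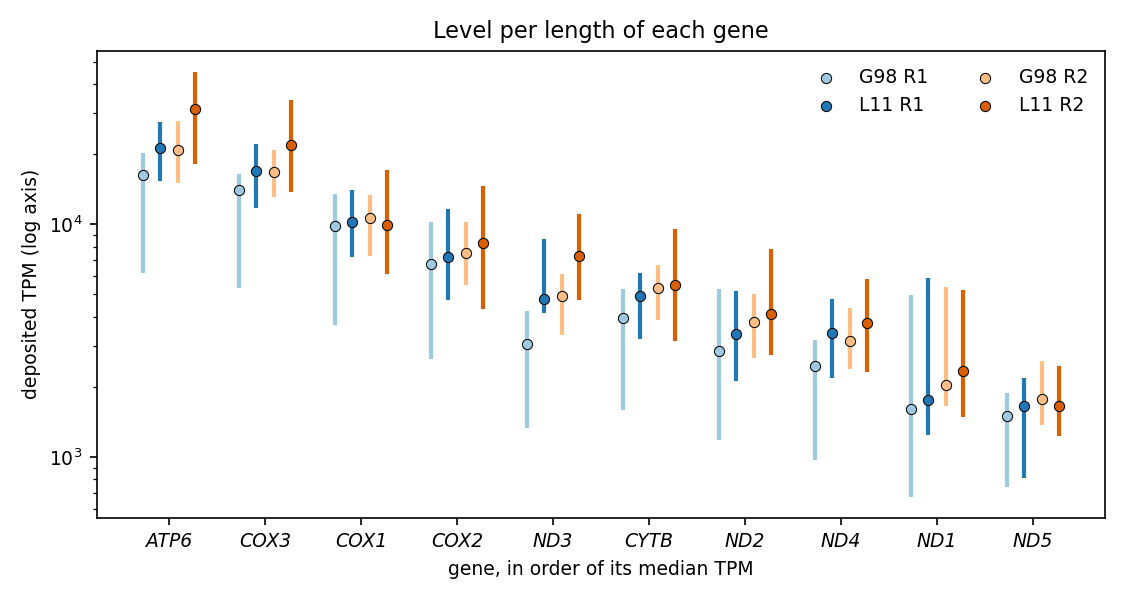
Level per effective length of each gene as deposited TPM on a log axis, with the median (point) and the range (line) of 14 libraries for each stage and replicate. ATP6 and COX3 are the highest and ND5 the lowest, and in most genes the L11 libraries of R2 reach the highest values.

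The stage comparison asks how each gene differs between late gestation and lactation in the same sow. The labels used here name no batch of library preparation, so stage and any technical handling that went with it cannot be told apart. On the scale of TMM-scaled CPM (CPM, the count per gene relative to the library total after edgeR's scaling between libraries), 8 of the 10 genes rose from G98 to L11 and 0 fell, at an adjusted p under 0.05 in edgeR's quasi-likelihood test over 26 pairs. The background was high, since 56.6% of all 12349 genes tested were called, 28.4% as higher and 28.2% as lower. The median log2 fold change was 0.44 over the 10 genes and 0.0037 over all genes tested. When each sow in turn was left out, 8 or 9 of the 10 genes were called.

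Among the complex I genes ND3 had the largest rise. Its level was 154, 302 and 529 CPM (lowest, median and highest) in the paired G98 libraries and 328, 491 and 1368 CPM in those of L11. The stages overlap between libraries, yet ND3 was higher at L11 in 26 of 26 pairs. The log2 fold change was 0.91 (SE 0.09, adjusted p = 1.4e-09). ND4 went from a median of 1593 CPM (709 to 2873) to 2329 CPM (1234 to 5072), with a log2 fold change of 0.56 (SE 0.12, adjusted p = 0.000225), and was higher in 21 pairs. ND2 went from 1012 CPM (409 to 1638) to 1406 CPM (660 to 3612), with a log2 fold change of 0.47 (SE 0.15, adjusted p = 0.00729), and was higher in 18 pairs. ND1 had medians of 773 and 958 CPM and a log2 fold change of 0.38 (SE 0.09, adjusted p = 0.000849), and was higher in 20 pairs. ND5, the longest of the 10, did not pass the threshold: its medians were 1285 and 1404 CPM, its log2 fold change 0.18 (SE 0.11, adjusted p = 0.154), and it was higher in 17 pairs.

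In complex III, CYTB rose. It went from 2356 CPM (1103 to 3906) to 3204 CPM (1845 to 7555), with a log2 fold change of 0.41 (SE 0.10, adjusted p = 0.00114) and 22 of 26 pairs higher. In complex IV COX3 and COX2 rose and COX1 did not pass the threshold. COX3 went from 5080 CPM (2500 to 7817) to 6969 CPM (4583 to 17832), with a log2 fold change of 0.58 (SE 0.08, adjusted p = 9.95e-07) and 23 pairs higher. COX2 had medians of 1399 and 1842 CPM and a log2 fold change of 0.41 (SE 0.13, adjusted p = 0.00892), with 18 pairs higher. Without the 3 sows whose libraries stood apart, its log2 fold change was 0.30 with an adjusted p of 0.0504, and 7 genes were called. COX1, the catalytic subunit, had medians of 7307 CPM (3416 to 12130) and 8212 CPM (4538 to 18308) and was higher in 16 pairs. Its log2 fold change of 0.23 (SE 0.12, adjusted p = 0.0944) did not pass the threshold.

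ATP6, the complex V gene, went from 3978 CPM (1641 to 6742) to 5846 CPM (3973 to 14976) and was higher at L11 in 24 of 26 pairs. The log2 fold change was 0.71 (SE 0.10, adjusted p = 4.48e-07). ATP6 and ND3 thus had the largest fold changes of the 10, and ND5 and COX1 the smallest.

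Both replicates had positive values for all 10 genes. Within R1 (14 pairs), where 43% of all genes were called and 21.1% as higher, 4 of the 10 rose: ND3 (log2 fold change 0.77), ATP6 (0.56), ND4 (0.50) and COX3 (0.41). Within R2 (12 pairs), where 48.3% were called and 24.9% as higher, 9 rose, from 0.39 for COX1 to 1.06 for ND3, and ND5 was at 0.28 (adjusted p = 0.0968). The median over the 10 genes was 0.33 in R1 and 0.59 in R2. Tested directly, the difference of the stage effect between the replicates was called in 0 of the 10 genes, against 20.9% of all genes (11% as larger in R2 and 9.82% as smaller). The estimates were 0.12 to 0.35 larger in R2 on the log2 scale, and the smallest adjusted p was 0.120, for COX3.

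**Figure D3:**
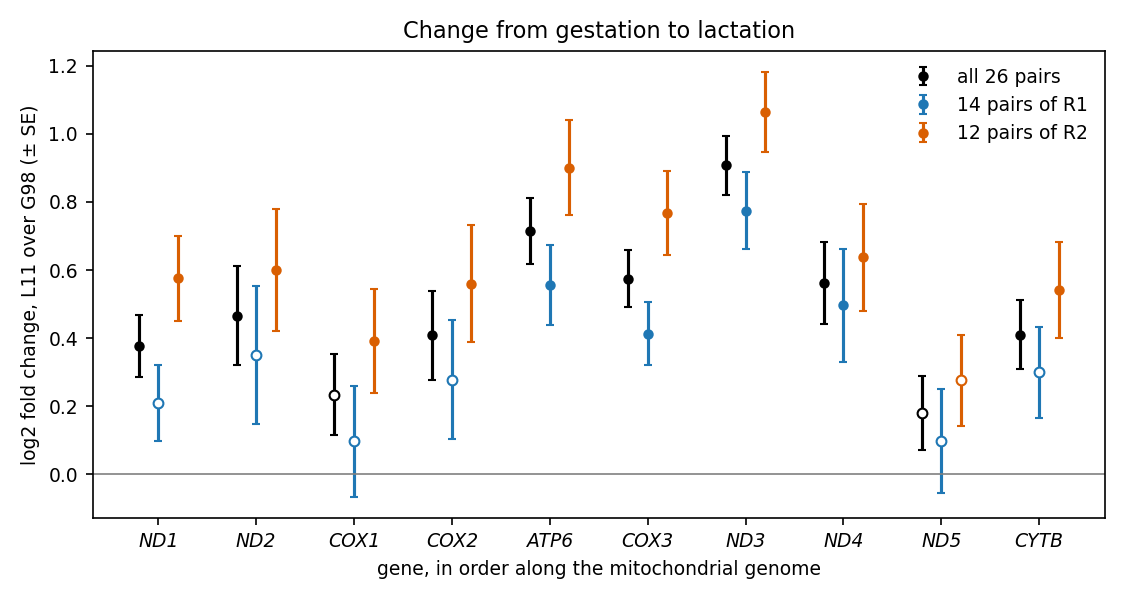
Log2 fold change of TMM-scaled CPM, L11 over G98, with its standard error, for all 26 pairs and for the pairs of each replicate. Filled points have an adjusted p under 0.05. All estimates lie above 0, ND3 and ATP6 are the highest, and COX1 and ND5 the lowest.

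On the TPM scale the median stage difference over the 26 pairs was smaller for each of the 10 genes, while within R1 it was larger for ND3, ND4, COX3 and CYTB. ND3 was higher at L11 in 25 of 26 pairs on the TPM scale (median log2 ratio 0.64, against 0.88 in TMM-scaled CPM), and ATP6 in 25 pairs (0.45 against 0.69). COX1 was higher in 14 pairs (0.08) and ND5 in 11 pairs (-0.02). The effective lengths by which the authors' TPM is divided differ between libraries and were longer at L11 in most pairs. The number of such pairs ran from 17 of 26 for ND2 to 25 for ND3 and COX3. In R2 the median for ND2 was 548 bases at G98 and 546 at L11. The median log2 ratio of these lengths over the pairs, L11 to G98, was 0.12 for ATP6 and 0.10 for ND3. For ND3 they ran from 137 to 140 bases in R1 and from 138 to 140 in R2 at G98. At L11 they ran from 113 to 150 in R1 (median 150) and from 149 to 150 in R2. The cause of this difference was not tested. Gene length also went with the stage difference over all genes. Among the 2513 tested genes within the length range of the 10 (346 to 1821 bases), 44.2% were called as higher and 17.4% as lower, with a median log2 fold change of 0.14, against 17.6% and 39.7% among genes over 4000 bases. The part of length in the rise of the 10 genes was not tested.

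The make-up of the mitochondrial counts also differed between the stages. As a share of the counts of the 10 genes together, which depends on gene length, ATP6 had a median of 15.8% (11.3% to 18.1%) at G98 and 19.3% (13.2% to 21.8%) at L11. The ATP6 share was higher at L11 in 26 of 26 pairs, with a median ratio of 1.19. ND3 had 1.29% (0.835% to 1.71%) and 1.76% (1.03% to 2.18%), and its share was higher in 25 of 26 pairs, with a median ratio of 1.36. COX1, with the largest share of the counts, was lower at L11, going from a mean of 29.2% (24.4% to 35.0%) to a mean of 24.9% (19.9% to 29.3%), and was higher at L11 in 2 of 26 pairs. ND5 had 4.75% (4.23% to 5.98%) and 4.01% (2.79% to 5.88%), and its share too was higher in 2 of 26 pairs. The other genes were between these: the share was higher at L11 in 19 pairs for COX3, 16 for ND4, 12 for ND2 and COX2, 11 for ND1 and 8 for CYTB. These shares sum to a whole, so a rise of one lowers others, and no test was made on them.

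**Figure D4:**
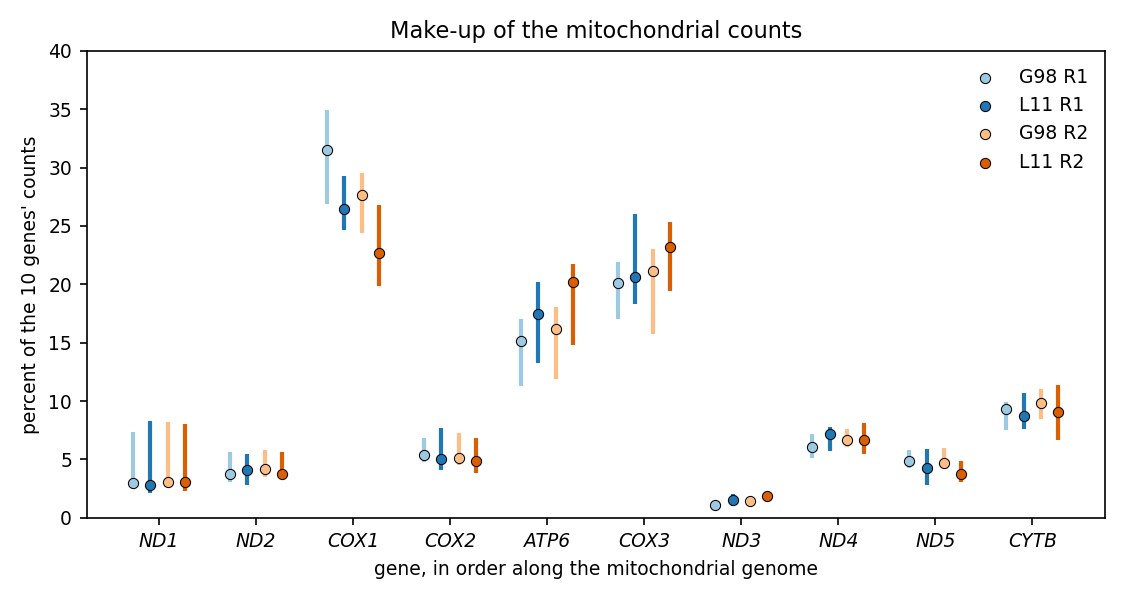
Percent of the counts of the 10 genes that fell in each, with the median (point) and range (line) of 14 libraries for each stage and replicate, in genome order. COX1 steps down and ATP6 and ND3 step up from G98 to L11 in both replicates, and also from R1 to R2 at each stage.

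The ratio of ATP6 to COX1, both in TPM, put this on 1 scale. Its lowest, median and highest values were 1.19, 1.62 and 2.00 at G98 in R1, and 1.32, 1.99 and 2.39 at G98 in R2. At L11 they were 1.71, 2.11 and 2.68 in R1 and 1.94, 2.99 and 3.31 in R2. The ratio was higher at L11 in 13 of 14 pairs of R1 and in 11 of 12 of R2, with overlapping ranges.

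The comparison of R2 with R1 was made within each stage, with parity and housing in the fit. R1 and R2 hold different animals except for the 2 sows with an L11 library in each, and what else differed between the replicates is not stated in the labels, so animals and technical handling cannot be told apart. At G98 1 of the 10 genes was higher in R2, against a background of 40.7% of all 12273 genes tested (19.3% higher and 21.3% lower). This gene was ND3, with 154, 260 and 356 CPM in R1 and 211, 390 and 529 CPM in R2, and a log2 fold change of 0.59 (SE 0.12, adjusted p = 0.000254 in edgeR's quasi-likelihood test). The median of R2 lay above the highest library of R1, and the groups overlap. The other 9 genes ranged from -0.01 for COX1 to 0.33 for ND4, and the median over the 10 was 0.27. Leaving out a single sow gave 1 to 4 called genes, and leaving out both sows with ATP8 counts, described further on, gave 2.

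At L11 7 of the 10 were higher in R2 and 0 lower, against a background of 43.3% of all 12298 genes tested (22% higher and 21.3% lower). They were ND3 (log2 fold change 0.86, adjusted p = 4.74e-05), ATP6 (0.68, adjusted p = 0.000503), ND1 (0.65, adjusted p = 0.00384), COX3 (0.64, adjusted p = 0.000357), CYTB (0.57, adjusted p = 0.00259), ND2 (0.56, adjusted p = 0.0261) and ND4 (0.48, adjusted p = 0.0261). ATP6, for example, had 3984, 4930 and 7665 CPM in R1 and 3973, 9169 and 14976 CPM in R2, so the median of R2 lay above the highest library of R1 and the lowest libraries of both were alike. COX2 (0.46), ND5 (0.37, adjusted p = 0.0504) and COX1 (0.35) did not pass. This fit does not account for the 2 sows that have a library in both replicates, and without their R2 libraries 9 genes were called, COX2 (0.50, adjusted p = 0.045) and ND5 (0.40, adjusted p = 0.0368) among them. Without the 3 sows whose libraries stood apart 5 genes were called, ND2 falling to 0.34 (adjusted p = 0.143) and ND4 to 0.29 (adjusted p = 0.155), and leaving out single sows gave 5 to 10.

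Parity, housing and rank were compared within each stage, and none of the 10 genes was called in any of these 6 comparisons with edgeR's quasi-likelihood test or with DESeq2. HP sows at G98 had a summed share of 1.52%, 2.85% and 3.81% (lowest, median and highest) and LP sows 0.991%, 2.62% and 3.03%. At L11 HP sows had 2.27%, 3.12% and 6.62% and LP sows 2.13%, 3.65% and 6.08%, so the order of the medians differed between the stages while the ranges overlapped at both. The log2 differences, HP minus LP, ran from -0.05 to 0.31 at G98, where 1.47% of all genes were called, and from -0.26 to 0.01 at L11, where 0.179% were (0.0163% as higher). The smallest p at G98 was that of ND5, with 791, 1328 and 2048 CPM in HP and 674, 1084 and 1570 CPM in LP sows (log2 difference 0.31, SE 0.13, adjusted p = 0.223). At an unadjusted p under 0.05 there were 1 of the 10 genes at G98 and 0 at L11.

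In enriched housing the summed share was 0.991%, 2.85% and 3.58% at G98 and 2.13%, 3.11% and 6.08% at L11, and in conventional housing 1.52%, 2.64% and 3.81% and 2.58%, 3.40% and 6.62%. The log2 differences, enriched minus conventional, ran from -0.22 to 0.06 at G98 (background 0.00815% of genes called) and from -0.43 to -0.16 at L11 (background 0%, with 735 genes at an unadjusted p under 0.05 and 0 called by DESeq2). ND1 was the lowest in both, and both sows with high ND1 were in conventional housing. Without these 2 sows the ND1 difference was 0.05 at G98 and -0.23 at L11. The numbers of the 10 genes at an unadjusted p under 0.05 were 0 and 0.

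Dominant sows had a median summed share of 2.65% (1.52% to 3.81%) at G98, where intermediate sows had 2.82% and subordinate sows 2.51%. At L11 dominant sows had 2.80% (2.27% to 4.26%), intermediate sows 3.87% (2.48% to 6.08%) and subordinate sows 3.69% (2.13% to 6.62%). The L11 log2 differences, dominant minus subordinate, were negative in all 10 genes, from -0.62 for ND2 to -0.19 for ND5, with a smallest adjusted p of 0.486 and a median of -0.40. Without the 3 sows whose libraries stood apart the range was -0.44 to -0.04 and the median -0.19. The fit of rank has no term for the replicate, and at L11 6 of the 11 dominant and 3 of the 8 subordinate libraries were of R1. With such a term the range was -0.52 to -0.12 and the median -0.29. ND2 had 660, 1091 and 1678 CPM in dominant and 783, 1763 and 2838 CPM in subordinate sows at L11, which overlap. At an unadjusted p under 0.05 there was 1 of the 10 genes at L11 and 0 at G98, where the differences ran from -0.04 to 0.26. Over all genes 0% were called at either stage, with 1814 genes at G98 and 1191 at L11 at an unadjusted p under 0.05, while DESeq2 called 218 and 59 genes. Rank and parity overlap closely, as 10 of the 11 dominant libraries at L11 were HP and 7 of the 8 subordinate ones LP. Tested as interactions, the stage effect did not differ by parity, housing or rank at the threshold in any of the 10 genes (smallest adjusted p 0.9998, 0.695 and 0.999). Over all genes edgeR called 0 in each of these interactions, with 262, 877 and 359 genes at an unadjusted p under 0.05, and DESeq2 called 0, 5 and 0. The estimates for dominant against subordinate sows were -0.75 to -0.35, with 5 of the 10 at an unadjusted p under 0.05. Those for enriched against conventional housing were -0.46 to -0.28, with 1 of the 10. Without the 3 sows whose libraries stood apart the housing estimates were -0.67 to -0.34. Then 9 of the 10 and 1569 of all 12326 genes had an unadjusted p under 0.05, and the smallest adjusted p of the 10 was 0.292 in edgeR's quasi-likelihood test.

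There were 2 sows that differed from the others in ND1 and in ATP8, a small subunit gene of the ATP synthase that lies before ATP6. ATP8 had 349, 735, 757 and 759 counts in the 4 libraries of these sows, and 0 to 8 counts in the other 52, of which 18 were at 0. One is a conventional LP subordinate sow of R2, with 349 counts at G98 and 757 at L11, and the other a conventional LP intermediate sow of R1, with 759 and 735. Both stages of each sow were thus high. In the same 4 libraries ND1 took 7.37% to 8.33% of the counts of the 10 genes, against 2.09% to 4.13% in the other 52, with no overlap. ND1 was at 1883 to 2735 CPM there and at 383 to 2189 CPM elsewhere. In TPM, the ratio of ND1 to its neighbour ND2 was 0.951 to 1.26 in the 4 libraries and 0.316 to 0.685 in the others. The ATP6 share was at the low end, 11.3% to 14.8% against 14.2% to 21.8%. The sows were picked out by their ATP8 counts after the values were seen, and no test was made between them and the rest. ND1 was also the gene whose estimated count was not whole in 52 libraries, against 1 library for COX1 and 0 for the other 8 genes.

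**Figure D5:**
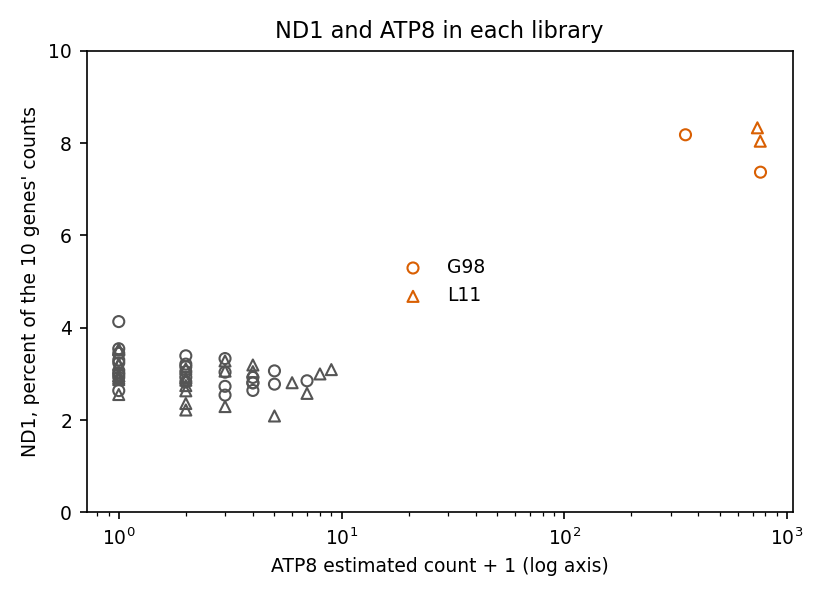
Each point is 1 library, with its ATP8 estimated count plus 1 on a log axis and the percent of the 10 genes' counts that fell in ND1. The 4 libraries of 2 sows stand at 349 to 759 ATP8 counts and above 7% for ND1, and the other 52 are at 8 counts or fewer and below 5%.

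The remaining protein genes of the mitochondrial genome were also measured. ND4L, which shares a transcript with ND4, had medians of 79.1 and 114 CPM in the paired libraries of G98 and L11 and rose, with a log2 fold change of 0.55 (SE 0.19, adjusted p = 0.0119 in edgeR's quasi-likelihood test). ND6, the complex I gene on the opposite strand, had 91.8 and 86.1 CPM, a log2 fold change of 0.08 (SE 0.16, adjusted p = 0.691) and 14 of 26 pairs higher. ND6 was lower in R2 at G98 (log2 fold change -0.73, adjusted p = 0.0032). ATP8 was not tested, since its counts were too low.

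Levels of the 10 genes moved together over the 56 libraries, which share depth and scaling between genes. In log2 CPM the highest Pearson correlation between a pair was that of ATP6 with COX3, adjacent on the genome (0.99), then that of ND2 with COX2 (0.96) and of ND4 with CYTB (0.96). The lowest were those of ND1 with ND3 (0.54) and with ND5 (0.59) and ATP6 (0.59). After the mean of each stage and replicate set was taken out, the lowest was ND1 with ND3 (0.23) and the highest ATP6 with COX3 (0.97). All these correlations include the 4 libraries with over 100 ATP8 counts, in which ND1 took a larger share. Correlations without those libraries are not given. With steps counted by start position from ND1 to CYTB, the median as measured was 0.90 over the 9 adjacent pairs. It was 0.74 to 0.88 over pairs 2 to 9 steps apart, without a steady fall (0.80 at 3 steps and 0.88 at 6). The 0.74 is that of the 1 pair 9 steps apart in this order, ND1 with CYTB. Among 9321 other genes with a symbol, those most like the mean of the 10 after the set means were taken out were MEMO1 (0.80), a regulator of cell migration, RAP1B (0.78), a small GTPase, UBE2D2 (0.77), a ubiquitin-conjugating enzyme, EIF3E (0.77), a subunit of an initiation factor of cytosolic translation, and ZNF639 (0.75), a zinc finger protein. Without taking them out they were NAP1L1 (0.80), a histone chaperone, UBE2D2 (0.80), CNBP (0.79), BTF3 (0.78) and EIF3E (0.77). None of these is one of the listed mitochondrial genes.

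The nuclear partners of the same complexes mostly rose with stage as well, where 28.4% of all genes tested rose and 28.2% fell. Of 28 tested nuclear subunits of complex I, 26 rose and 0 fell (median log2 fold change 0.39, against 0.0037 over all genes), led by NDUFB1 (1.24, SE 0.09, adjusted p = 1.05e-11). Complex III had 5 of 7 higher (UQCRQ, 0.60), complex IV 9 of 9 (COX7B, 0.64) and complex V 10 of 11 (ATP5ME, 0.82), each with 0 lower. Complex II, which has no subunit from the mitochondrial genome, had 3 of 4 higher (SDHB, 0.45). The proteins that translate mitochondrial messages followed less evenly, with 44 of 78 higher and 3 lower, the ribosomal protein MRPL22 at 0.49 and the elongation factor GFM2 at -0.39. The factors that make and process mitochondrial RNA had 9 of 24 higher and 4 lower and a median of 0.08. PRORP, the catalytic subunit of mitochondrial RNase P, rose by 0.46, and POLRMT, the mitochondrial RNA polymerase, fell by 0.24. Genes of mitochondrial DNA maintenance had 3 of 12 higher, among them the single-strand binding protein SSBP1 (0.46), and 3 lower, among them the DNA polymerase POLG (-0.30), which is near the shares over all genes. Regulators of mitochondrial biogenesis had 0 of 12 higher and 6 lower, with the transcription factor YY1 at -0.32.

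Between replicates the nuclear subunits were mostly lower in R2 at G98 and mostly higher at L11. At G98, where 21.3% of all genes were lower in R2, 20 of 28 nuclear complex I subunits were lower in R2 and 0 higher (median -0.32), as were 6 of 7 of complex III, 4 of 9 of complex IV and 7 of 11 of complex V, where the 10 mitochondrial genes had a median of 0.27 and 1 called. At L11, where 22% of all genes were higher in R2, 14 of 28 complex I subunits were higher and 3 lower, 1 of 7 of complex III was higher and 1 lower, and 8 of 9 of complex IV and 9 of 11 of complex V were higher. The difference of the stage effect between replicates was called as larger in R2 for 11% of all genes, for 19 of 28, 4 of 7, 8 of 9 and 10 of 11 nuclear subunits of complexes I, III, IV and V, and for 0 of the 10 mitochondrial genes. Whether the nuclear and mitochondrial sets differ in this was not tested. Gene length went with these differences too. Among genes of 346 to 1821 bases, 23% had a stage effect called as larger in R2 and 2.67% as smaller. Of such genes 31.4% were higher and 12.6% lower in R2 at L11, and 11.4% higher and 27.4% lower at G98. The part of length in the counts of subunits was not tested.

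Markers of the cell types in the samples are read against the same background for stage, 28.4% of all genes higher and 28.2% lower. Erythroid markers fell in 8 of 8 (median log2 fold change -2.61, SLC4A1 at -3.22), and they fell from R1 to R2 at G98 in 8 of 8 as well. Monocyte markers rose in 8 of 12 (CEBPB, 0.65), and none of the 12 was at 0 over either stage. Their summed share had a median of 0.271% (0.140% to 0.343%) at G98 and 0.310% (0.237% to 1.03%) at L11. The 1.03% is that of 1 library, and the next highest at L11 was 0.486%. Platelet markers fell in 2 of 8, with a summed share of 0.00713% to 0.239% at G98 and 0.0306% to 0.185% at L11. T cell markers had 1 of 11 higher (CD3E, 0.17) and 7 lower (BCL11B, -0.84), B cell markers 1 of 11 lower (PAX5, -0.43), gamma delta T cell markers 3 of 6 lower (SOX13, -0.46), and cytotoxic and NK cell markers 6 of 13 higher (GNLY, 0.84) and 1 lower (EOMES, -0.28). Plasma cell markers had 7 of 9 higher (SDC1, 0.55) and 1 lower (POU2AF1, -0.21). Within R1 0 of these 9 were higher and 1 lower, where 21.1% of all genes were higher. Within R2 8 were higher and 0 lower, where 24.9% of all genes were higher. Their stage effect was called as larger in R2 in 7 of 9, against 11% of all genes. Dendritic cell markers had 3 of 6 higher (IRF8, 0.46) and 1 lower (ZBTB46, -0.54), and granulocyte markers 2 of 3 higher (CSF3R, 0.40). The part of the cell type markers in the rise of the mitochondrial genes was not tested. With mitochondrial and erythroid genes left out of the scaling 8 of the 10 genes were still called in the stage comparison.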

How the data were processed

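RNA from blood mononuclear cells was made into QIAseq Stranded mRNA libraries, per the labels' protocols. The submitters' processing notes name DESeq2, R 4.1.2 and the Sscrofa11.1 build. The sources used here do not give the aligner, the annotation or the counting settings. Per the file headers, the authors deposited for each gene an estimated count, not normalised, a TPM, a length and an effective length. For the tests these estimated counts were rounded (4.61% were not whole). The deposited TPM was used for levels per length, with no test. Gene symbols matched 14692 of 24358 IDs (60.3%). Spans are from RefSeq, counted from 1.

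Tests used edgeR 4.0.16 in R 4.3.3 (TMM scaling, filterByExpr, glmQLFit and glmQLFTest) over all genes, with Benjamini-Hochberg adjustment, a threshold of 0.05 and 2-sided p-values, and the script was tested on simulated data. Stage was fitted with a term for each sow and replicate over 26 pairs. The replicates were compared with parity and housing as covariates, parity with housing, housing with parity, and rank (dominant minus subordinate, intermediate sows in the fit) with housing. The pairing comes from the ear tag in the labels. In 26 of 26 pairs the deviations from the set means correlated (0.187 to 0.598). Libraries of different sows were not compared in this way, so these values do not test the pairing. SE is the log2 fold change divided by the square root of F. Correlations used log2 CPM with a prior count of 2. Totals of 18096881 to 25302994 counts limit the precision of a count, and intervals cover counting error only.

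The 10 genes and all lists were chosen with earlier results of these data known. Named were all 10 genes, the other genes of the mitochondrial genome, for each other list the called gene with the smallest p in each direction of the stage comparison, and the 5 genes most like the 10, and 1 gene that this rule names is not reported here. Alternatives were DESeq2 1.42.0 and its size factors, scaling without mitochondrial and erythroid genes, no filter, a filter of at least 1 CPM in 50% of libraries, the replicate block, all 3 factors together, no repeat libraries, the unpaired fit, each replicate alone and each sow left out. Leaving out the sows of libraries with a share above 6% or below 1%, and those with over 100 ATP8 counts, and levels per gene length, were chosen after seeing the data. No sequence is printed.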

Additional observations from a re-analysis of the deposited data

Results flagged for a closer look

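Libraries of 1 stage and rank were compared for the 10 genes and for their summed share. In 5 of the 44 groups of values checked 1 library lay far from the others. The 44 groups do not cover every stage and rank. All 5 came from groups of 8 or 9 libraries. The 11 intermediate libraries at G98 hold the lowest share of the series (0.991%). Since not every group was checked, the lack of a flag among them, or among the 11 dominant ones at L11, is not a result. Chance would flag about 1 in 20 separate groups. The 10 genes moved together over the same libraries, so these groups are not separate and 5 of 44 cannot be set against that rate. Both ND4 and ND5 were highest among the 8 subordinate G98 libraries in the conventional HP sow of R2 whose L11 library had the highest mitochondrial share, with 2873 CPM for ND4 (next 1832) and 1909 CPM for ND5 (next 1331). The same sow had the highest CYTB level of the 8 subordinate L11 libraries, at 7555 CPM (next 4160). ND1 was highest among the subordinate G98 libraries, at 1883 CPM (next 1083), in the R2 sow with ATP8 counts. ND2 was highest among the 9 intermediate L11 libraries, at 3612 CPM (next 2163), in the enriched LP sow of R2 with the second highest mitochondrial share.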

How the results depend on the processing

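These counts cover the 10 genes in the stage and replicate comparisons and the gene of smallest p in each other one. Under the alternatives other than leaving out a sow, 7 values lost their call, 9 gained one and 3 reversed, and the others of this set kept their direction and their side of the threshold. In the stage comparison 4 genes were called within R1 (14 pairs), 9 within R2 (12 pairs), and 8 or 9 when a sow was left out. At G98 DESeq2 called 2 genes as higher in R2, as did the fit without the sows with ATP8 counts, and leaving out a sow gave 1 to 4. At L11 leaving out a sow gave 5 to 10. COX1 at G98 was near 0 between replicates and turned to 0.0297 without the sows with ATP8 counts (-0.0719 to 0.0631 with a sow left out). ND2 between parities at L11 turned to 0.11 with all 3 factors and the replicate block, where 9 of the 10 genes were positive (median 0.14) against 2 (median -0.09) without. ND1 between housings at G98 turned to 0.0541 without the sows with ATP8 counts. Without the 3 sows of libraries that stood apart, 9 genes were positive between housings at G98 against 4, and 6 between parities at G98 against 9, and with the replicate block 10 between ranks at G98 against 8. The cause was not tested. With the replicate block 0 of the 10 genes were called for parity, housing and rank at both stages and for their interactions with stage.

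Over all genes, the parity count at G98 was 180 with edgeR, 459 with DESeq2, 357 with the replicate block, 121 with no filter as against 186 with the stricter one, 2 with all 3 factors and the replicate block, and 34 without the 3 sows of libraries that stood apart. At L11 it was 22, then 61, 37, 0 and 1 in the same order without the filters, 12 without repeat libraries and 10 without the sows with ATP8 counts. Housing at G98 had 1 call, 3 with DESeq2 and 0 without either group of sows. Rank had 0, against 218 and 59 with DESeq2, 9 at G98 without the 3 sows and 3 at L11 with the replicate block. Stage by housing had 5 with DESeq2. By counts per kilobase of gene length in place of TPM, 3 of the 10 genes kept their place in the order of levels. Depth did not limit the 10 genes: the lowest level of any, that of ND3, was 154 CPM.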
